A study of Mus musculus with 6 samples.

Results

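Hand1 and Hand2 encode closely related basic helix-loop-helix transcription factors of the developing embryo, and Ezh2 at these genes was measured in mouse T helper cells by chromatin immunoprecipitation and sequencing. The 2 genes were followed as 2 windows of the mm9 genome, chr11:57630000-57660000 for Hand1 (30 kb) and chr8:59780000-59840000 for Hand2 (60 kb). Together they held 90 of the 2638957 bins of 1 kb on chromosomes 1 to 19 and X. Both windows were picked because earlier counts of these same libraries had shown Ezh2 over input there and a ratio between the cell types. Those values are therefore given as a description, without a test. The exact start of each gene was not placed inside its mm9 window, and the neighbours are known only by order: in the GRCm38.p6 gene table Hand1 lies between Sap30l and the long noncoding RNA Gm32915, and Hand2 between the noncoding RNAs Hand2os1 and Gm34030. That table lists Th1 and Th2 among the older aliases of Hand1 and Hand2, but below these words mean the cell types alone.

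Naive splenic CD4 T cells of C57BL/6 mice had been cultured for 5 days, the first 2 with anti-TCRβ (10 µg/ml), anti-CD28 (1 µg/ml) and IL-2 (15 ng/ml), and the next 3 without the stimulating antibodies. Th1 cells received IL-12 (10 ng/ml) with an antibody that blocks IL-4, and Th2 cells received IL-4 (100 ng/ml) with one that blocks IFN-γ. Each cell type gave a pull-down with a polyclonal Ezh2 antibody, one with control rabbit IgG, and input DNA. There was 1 library in each group and no replicate, so every interval below is a 95% exact interval that covers counting error only, and cell type and library cannot be told apart.

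Polycomb repressive complex 2 keeps genes silent by methylating lysine 27 of histone H3, and Ezh2 is its enzyme. Polycomb often covers genes of embryonic transcription factors in cells of other lineages, and their promoters are typically rich in CG dinucleotides, the sites at which mammalian DNA is methylated. Hand1 acts in the developing placenta and heart, and Hand2 in the heart, the limb bud and cells derived from the neural crest.

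The DNA in front of Hand2 is shown because CG-rich promoters are the usual setting of Polycomb in mammals. The sequence comes from RefSeq in the build GRCm38.p6, where it covers chr8:57320733-57320982 on the plus strand and ends at the base before the annotated start of Hand2. It was not placed on mm9. CG dinucleotides are in capitals.
Hand2, 250 bases before the start: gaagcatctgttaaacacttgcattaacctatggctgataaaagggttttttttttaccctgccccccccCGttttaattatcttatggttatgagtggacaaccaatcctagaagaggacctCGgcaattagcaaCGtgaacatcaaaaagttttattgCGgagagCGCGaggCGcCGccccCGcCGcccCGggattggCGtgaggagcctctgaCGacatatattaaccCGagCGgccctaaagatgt
The stretch holds 15 CG dinucleotides, 13 of them in the 125 bases nearest the start. Its G+C content is 49.2%, and the ratio of observed to expected CG is 0.993. Of 32544 mouse promoters of the same length, 27.5% hold at least as many CG dinucleotides, and the median promoter holds 6 with 52.4% G+C. The antisense neighbour Hand2os1 starts on the opposite strand. Its full promoter entry, which also includes bases past the start, overlaps that of Hand2 by 223 bases. The 250 bases before the Hand2os1 start hold 22 CG dinucleotides. The share of CG describes these letters and was not compared with Ezh2.

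The values counted below are distinct positions. One position is 1 deposited interval counted once, however many reads shared it, assigned to the bin of its midpoint. On chromosomes 1 to 19 and X, Th1 Ezh2 comprised 10809666 positions and Th2 Ezh2 14963599, while the inputs comprised 15578675 and 12862628. The Th1 control antibody comprised 9326717. Levels are given per 1000000 positions of these totals (PPM). A position carried on average 2.24 reads in Th1 Ezh2 and 2.04 in Th2 Ezh2, against 1.29 and 1.77 in the inputs. Within the windows the Ezh2 averages were between 1.99 and 2.16, close to those of the libraries. The deposited file of the Th2 control antibody reached neither window and was not analysed here. No other gene was placed on mm9, so the labelled cell types were not checked against marker genes.

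At Hand1, Ezh2 stood well above input in both cell types. The Ezh2 libraries had 1010 positions in the 30 kb in Th1 and 1872 in Th2, the inputs 236 and 211, and the Th1 control antibody 140. Scaled, these were 93.4 PPM in Th1 Ezh2, 125.1 PPM in Th2 Ezh2, 15.1 and 16.4 PPM in the inputs, and 15.0 PPM in the control antibody. The 2 Ezh2 libraries were high, and the inputs and the control antibody lay together at about the same low level. Over input, Ezh2 was 6.17-fold in Th1 (5.35 to 7.14), with 7.63-fold in Th2 (6.61 to 8.84). For a pull-down without Ezh2, the control antibody lay at 0.991-fold of the Th1 input (0.798 to 1.23), and Th1 Ezh2 was 6.22-fold over the control antibody (5.21 to 7.48).

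At Hand2, the same order of libraries was seen, with a wider gap between the cell types. The 60 kb held 1406 Ezh2 positions in Th1 and 3304 in Th2, 452 and 402 input positions, and 237 control antibody positions. Ezh2 reached 130.1 PPM in Th1 and 220.8 PPM in Th2, the inputs 29.0 and 31.3 PPM, and the control antibody 25.4 PPM. Over input it was 4.48-fold in Th1 (4.03 to 5.00), with 7.06-fold in Th2 (6.37 to 7.86). The control antibody lay at 0.876-fold of the Th1 input (0.745 to 1.03). Th1 Ezh2 was 5.12-fold over the control antibody (4.46 to 5.90). The choice of background moved this value more at Hand2 than at Hand1. The intervals of the control antibody over input overlap between the genes, however, and both include equality.

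**Figure D1:**
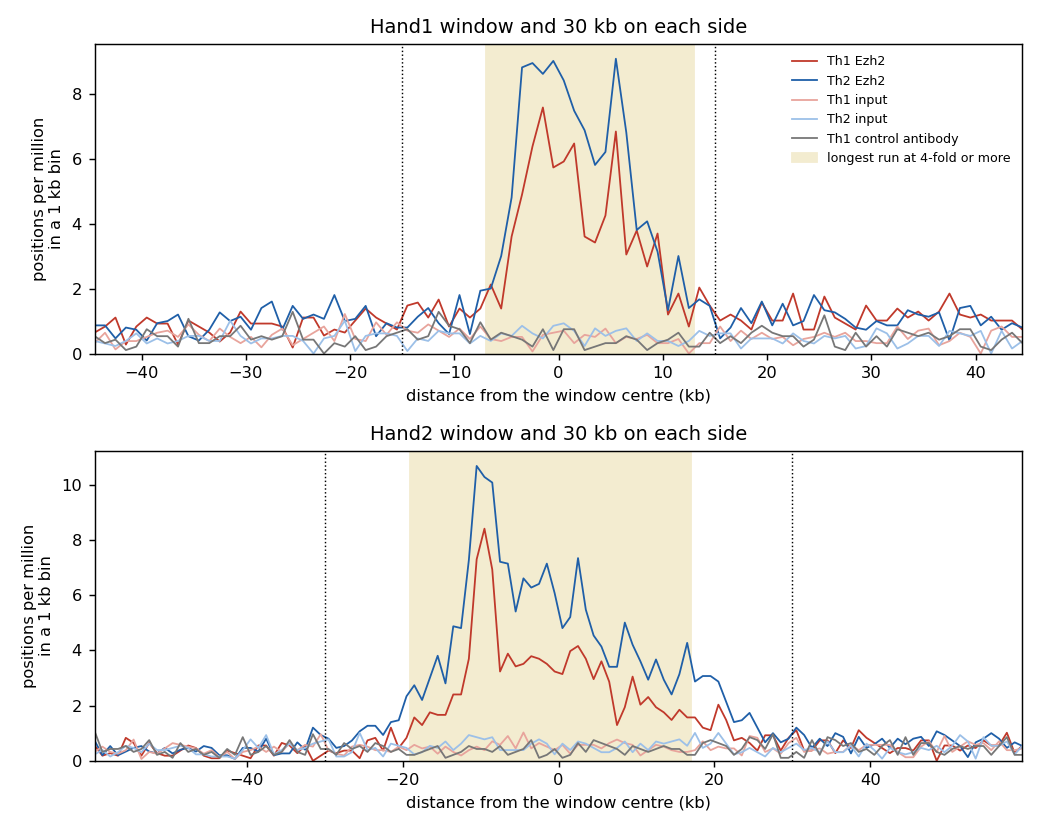
PPM in each 1 kb bin (vertical axis) against the distance from the centre of the window in kb, for Hand1 (top) and Hand2 (bottom). Lines are the 5 libraries, dotted lines the window borders, and the shaded stretch the longest run of bins at 4-fold or more on both cell types pooled (20 kb at Hand1, 36 kb at Hand2). Both Ezh2 lines rise over a broad stretch inside each window while the inputs and the Th1 control antibody stay near the bottom, and the Th2 line lies above the Th1 line in 36 of the 36 run bins at Hand2 and 18 of 20 at Hand1.

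How much of each window carried Ezh2 was counted in bins of 1 kb. A bin was tested with at least 10 positions over both libraries and counted as past the fold at 4-fold or more, with 0.5 added to each count. At Hand1, 18 of 29 tested bins passed in Th1, where 2.17% of all tested bins of the genome did, and 19 of 30 passed in Th2, against 2.75% genome-wide. At Hand2 the counts were 26 of 57 tested bins in Th1 and 39 of 59 in Th2. The Th1 control antibody had 0 of 24 bins past the fold at Hand1 and 0 of 42 at Hand2, against 1.44% of all its tested bins. The windows had been picked on the Ezh2 contrast, so nothing is read from the Ezh2 shares.

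Most of the remaining bins of both windows still lay above input. At 2-fold or more, the Hand1 window had 25 of 29 tested bins in Th1 and 27 of 30 in Th2, and the Hand2 window 45 of 57 and 56 of 59. Genome-wide, 14.7% of tested bins reached 2-fold in Th1 and 14.6% in Th2. With the control antibody in Th1, there was 1 such bin of 24 at Hand1 and 1 of 42 at Hand2, against 11.9% of all its tested bins. The median bin was 5.52-fold over input in Th1 and 7.16-fold in Th2 at Hand1. At Hand2 it was 3.60-fold in Th1 and 5.83-fold in Th2. The highest single-bin folds rest on few input positions: the 66.8-fold bin of Hand1 in Th1 set 69 Ezh2 positions against 1 input position.

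Windows of the same size tiled over the genome place these values. The 2 gene windows were picked on this fold, while the tiles follow a fixed grid that can cut an enriched stretch. The counts are therefore a description, and a high place of the genes was built into the choice. Of 83680 windows of 30 kb, 1.58% reached 2-fold in Th1, and 65 stood at or above the fold of Hand1. In Th2, 2.00% of 83695 windows reached 2-fold and 73 stood at or above Hand1. For windows of 60 kb, 1.40% of 41916 reached 2-fold in Th1 and 50 were at or above Hand2, and in Th2 1.84% of 41930 reached 2-fold and 25 were at or above Hand2. Hand2 thus had fewer windows above it in Th2 than in Th1.

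Most enriched bins at each gene lay in 1 run. Runs were built from bins at 4-fold or more with both Ezh2 libraries pooled against both inputs pooled, joined over a gap of at most 1 bin. The longest run at Hand1 covered 20 kb, chr11:57638001-57658000, and was the only one in that window. At Hand2 it covered 36 kb, chr8:59791001-59827000, and was followed inside the window by 2 single bins, chr8:59829001-59830000 and chr8:59833001-59834000. The Hand1 run includes 1 bin below 4-fold, at 3.52-fold, and the Hand2 run 3 such bins, at 3.74-fold to 3.91-fold. Neither run touched the border of its window.

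Within its run, Hand1 had 858 Ezh2 positions in Th1 and 1687 in Th2, against 140 and 147 in the inputs and 77 in the control antibody. That is 8.83-fold over input in Th1 (7.38 to 10.6) beside 9.86-fold in Th2 (8.33 to 11.8), and the intervals overlap. The Hand2 run had 1201 and 2776 Ezh2 positions, 282 and 254 input positions and 131 control antibody positions. Its folds were 6.14 in Th1 (5.39 to 7.01) and 9.39 in Th2 (8.26 to 10.7), with intervals that do not overlap. In Th2 the runs of both genes were thus at similar folds, and in Th1 the run at Hand2 was the lower of the pair.

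The shape of the run differed between the genes. At Hand1 the Ezh2 level had 2 crests, the first around chr11:57641001-57646000 and the second at chr11:57650001-57651000. In Th1 the highest bin was in the first crest, with 82 positions at chr11:57643001-57644000. In Th2 it was in the second, with 136 positions, but the bin at chr11:57644001-57645000 held 135. In Th1 the second crest held 74 positions. The bins between the crests went down to 37 positions in Th1 and 87 in Th2, both at chr11:57648001-57649000.

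At Hand2 a single narrow crest stood near the lower coordinates, followed by a long shoulder. The highest bins were neighbours, chr8:59800001-59801000 in Th1 with 91 positions and chr8:59799001-59800000 in Th2 with 160. The input had 6 and 11 positions in those bins of the same cell type. Past the crest, between chr8:59803001 and 59815000, bins held 32 to 45 positions in Th1 and 68 to 110 in Th2. Beyond that the level went down over more than 10 kb in both cell types.

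The 5 kb with the most pooled Ezh2 positions in each run, its summit, was nearly the same at both genes. At Hand1 the summit, chr11:57641001-57646000, had 330 Ezh2 positions in Th1, 656 in Th2, 39 and 48 in the inputs and 21 in the control antibody. At Hand2 the summit, chr8:59798001-59803000, had 320, 682, 40, 49 and 21 in the same libraries. The folds over input were 12.2 in Th1 (8.73 to 17.5) and 11.7 in Th2 (8.76 to 16.1) at Hand1, and 11.5 and 12.0 at Hand2. With only 39 to 49 input positions, the intervals are wide. The summit folds of the cell types lay close together although Th2 Ezh2 was higher in PPM, 1.44-fold at Hand1 and 1.54-fold at Hand2, since the Th1 input was 0.671 of the Th2 input in the Hand1 summit (0.428 to 1.05) and 0.674 in the Hand2 summit (0.433 to 1.04).

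The rest of each run stood lower over input than its summit. At Hand1 the 3 kb before the summit were at 5.28-fold in Th1 and 6.32-fold in Th2. The 12 kb of run after the summit of Hand1 was enriched 8.12-fold in Th1 (6.39 to 10.4), and in Th2 the value was 9.62-fold (7.64 to 12.3). The stretch after the summit of Hand2 stood at 5.41-fold in Th1 and 9.13-fold in Th2. The ratio of the Th1 fold to the Th2 fold was 0.845 (0.598 to 1.19) there at Hand1 and 0.593 (0.470 to 0.746) at Hand2. These 2 intervals overlap. Before the summit of Hand2 the folds were 4.52 and 7.43. In Ezh2 positions alone, the Th1 to Th2 ratio of the summit was 0.982 of that of the rest of the run at Hand1 (0.826 to 1.17) and 1.12 of it at Hand2 (0.952 to 1.30), and both intervals include equality.

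**Figure D2:**
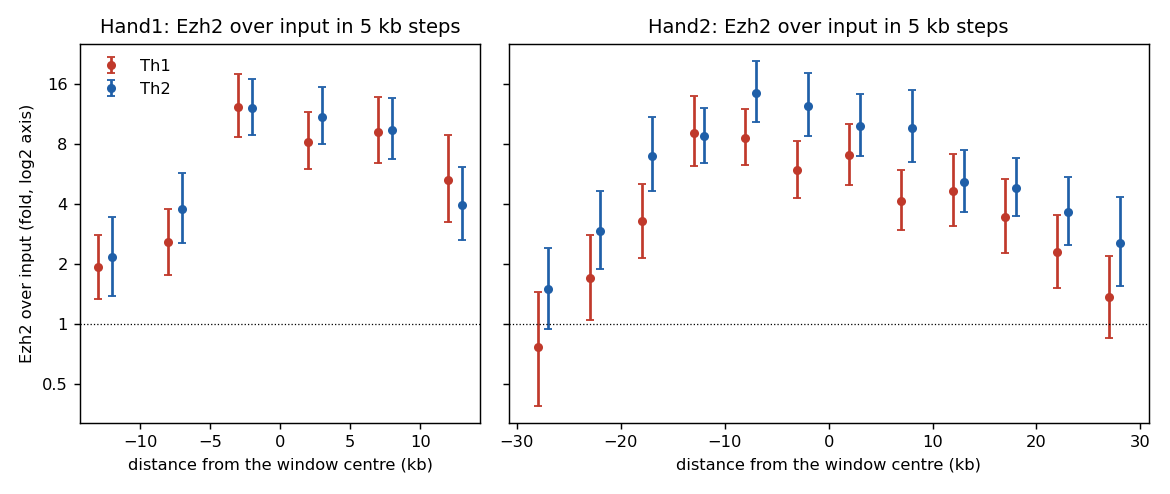
Ezh2 over input (vertical axis, log2 scale) in steps of 5 kb against the distance from the window centre in kb, for Hand1 (left) and Hand2 (right). Points are Th1 and Th2, bars the 95% exact intervals for counting error, and the dotted line is equality with input. Th2 lies above Th1 in 4 of 6 steps at Hand1 and 11 of 12 at Hand2. At 2.5 kb before the centre the Th1 and Th2 folds are 12.2 and 12.0 at Hand1 and 5.89 and 12.3 at Hand2. That step overlaps the summit of Hand1 but lies past the summit of Hand2, so these are unlike parts of the runs.

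The ratio between the cell types was taken next, from the Ezh2 levels in PPM. At Hand1 the Th1 level was 0.747 of the Th2 level (0.691 to 0.807), that is, Th2 had 1.34-fold more (1.24 to 1.45). At Hand2 it was 0.589 (0.553 to 0.627), with 1.70-fold more in Th2 (1.59 to 1.81). The inputs were much nearer to each other: the Th1 input was 0.923 of the Th2 input at Hand1 (0.764 to 1.12) and 0.928 at Hand2 (0.810 to 1.06). With the inputs taken into account, the Th1 fold was 0.809 of the Th2 fold at Hand1 (0.658 to 0.994) and 0.635 at Hand2 (0.546 to 0.738). A pull-down of a cell population counts Ezh2 over all its cells, so more cells with Ezh2 at a gene and more Ezh2 per cell cannot be told apart.

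The genes can be set against each other without the library totals, because both were read in the same libraries. The Th1 to Th2 ratio of Hand1 was 1.27 times that of Hand2 over the windows (1.15 to 1.40) and 1.18 times over the longest runs (1.06 to 1.31). At the summits it was 1.07 times (0.885 to 1.30), an interval that includes equality. For the inputs over the windows it was 0.995 (0.786 to 1.26). In fold over input, Hand1 stood 1.38 times as high as Hand2 in Th1 (1.15 to 1.65) and 1.08 times in Th2 (0.903 to 1.29). The windows differ in size and in how much of each lies outside its run, and the runs differ in width. The part of these differences in the comparison was not tested.

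Bin by bin, the higher level in Th2 was spread over the whole of Hand2. In PPM, Th2 Ezh2 was above Th1 Ezh2 in 58 of the 60 bins of the window and in 36 of the 36 bins of the run, where the ratio of Th1 to Th2 lay between 0.376 and 0.875 with a median of 0.595. At Hand1 it was above in 21 of 30 bins of the window and 18 of 20 of the run. The share of such bins in other runs is not given here. The median Th1 to Th2 ratio over all runs of at least 10 kb was itself below 1, at 0.793. Over the Hand1 run the bin ratio lay between 0.452 and 1.18 with a median of 0.697. In the Hand1 window outside the run, the 8 kb before it had a ratio of 1.14 (0.884 to 1.48) and the 2 kb after it 1.12 (0.710 to 1.75). The direction before the run depends on the input: the Th1 input was 1.48 times the Th2 input there (1.03 to 2.15), and the folds were 1.91 in Th1 against 2.47 in Th2, which makes the Th1 fold 0.775 of the Th2 fold (0.490 to 1.22). The stretches of the Hand2 window outside the run had low ratios, 0.481 before it (0.356 to 0.643) and 0.567 after it (0.463 to 0.692).

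**Figure D3:**
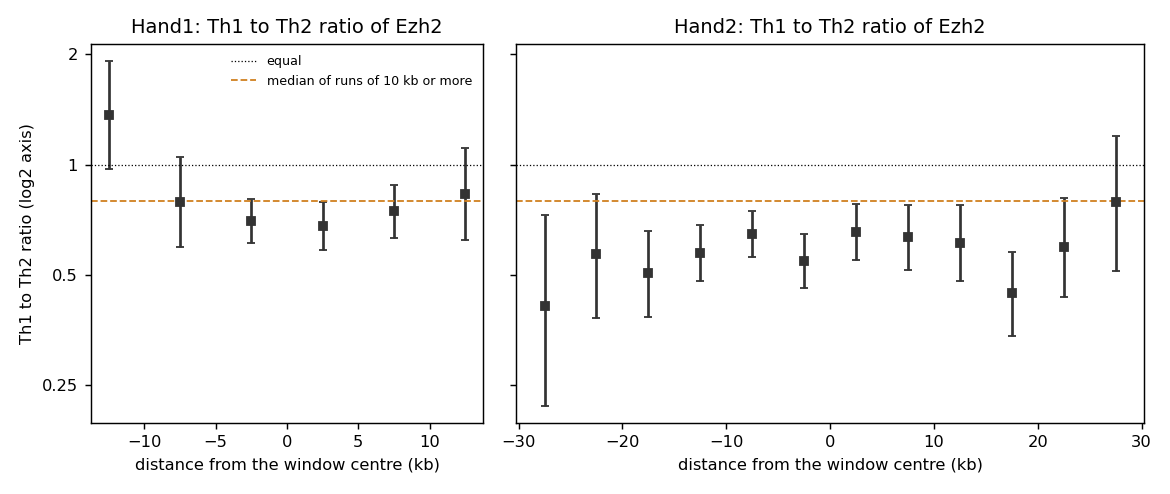
Ratio of the Th1 to the Th2 Ezh2 level in PPM (vertical axis, log2 scale) in steps of 5 kb against the distance from the window centre in kb, for Hand1 (left) and Hand2 (right). Squares are the ratios, bars the 95% exact intervals for counting error, the dotted line equality and the dashed line 0.793, the median over the 249 runs of 10 kb or more. All 12 steps of Hand2 lie below 0.80, from 0.410 to 0.788, and the steps of Hand1 run from 0.680 in the run to 1.37 at the window's start.

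The profiles of the cell types followed each other along the genes. Over the 30 bins of Hand1 the Spearman correlation of Th1 with Th2 Ezh2 positions was 0.893, and over the 60 bins of Hand2 it was 0.937. Neighbouring bins are not independent, so these values describe the shape alone. Ezh2 and input of the same cell type correlated at −0.0752 in Th1 and 0.486 in Th2 at Hand1, and at 0.202 and 0.373 at Hand2. The inputs of the cell types correlated at 0.0613 and 0.122.

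The DNA around the windows gives the level outside the genes. In the 500 kb on each side, without the bins of other runs, the Th1 to Th2 ratio of Ezh2 was 1.17 before and 1.00 after Hand1, and 0.908 before and 1.01 after Hand2. Ezh2 over input there was between 1.10 and 1.20 around Hand1 in both cell types. Around Hand2 it was 0.751 in Th1 and 0.812 in Th2 before the window and 1.11 and 1.07 after it. The flanks of Hand1 held 9 other runs and those of Hand2 held 2, and none was wider than 3 kb. The 3 kb run near Hand1, chr11:57479001-57482000, had the reverse order, with 54 Ezh2 positions in Th1 against 27 in Th2, and the control antibody stood at 2.07-fold over input in it.

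Over the genome there were 10225 runs, of which 249 were at least 10 kb wide. Among those 249 runs, 58 were wider than that of Hand1 and 8 were wider than that of Hand2. In fold over input, 82 runs stood above Hand1 in Th1 and 141 in Th2. For Hand2 the numbers were 188 in Th1 and 154 in Th2. Hand2 was thus among the widest runs at a fold below the median in both cell types, where the medians were 7.62 in Th1 and 10.4 in Th2.

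Wide runs mostly had more Ezh2 in Th2. The median Th1 to Th2 ratio over the 249 runs was 0.793, and their median control antibody fold was 0.999. At Hand1 the run had a ratio of 0.704 (0.648 to 0.765), with 46 runs lower (18.5%), and at Hand2 it was 0.599 (0.559 to 0.641), with 17 lower (6.83%). Set against that median, the ratios were 0.888 at Hand1 and 0.755 at Hand2. All of these leave out the inputs. With them, the Th1 fold of the run was 0.896 of the Th2 fold at Hand1 (0.695 to 1.15) and 0.653 at Hand2 (0.542 to 0.788). The Th1 input was 0.786 of the Th2 input in the Hand1 run (0.619 to 0.998). Over input, 82 wide runs stood above Hand1 in Th1 and 141 in Th2, so its low place holds only without the inputs. How many runs lie below Hand2 with the inputs was not counted, so its place of 17 lower applies only without them. The run chr1:89046001-89056000, for example, had a PPM ratio of 0.749, above that of Hand2. Its folds of 6.34 in Th1 and 13.3 in Th2 were further apart than the 6.14 and 9.39 of Hand2. A PPM ratio below 1 was common to most wide runs. The 2 Ezh2 libraries differ in total, in reads per position and, by the run labels on their files, in sequencing run. The part of those differences in the ratio was not tested.

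**Figure D4:**
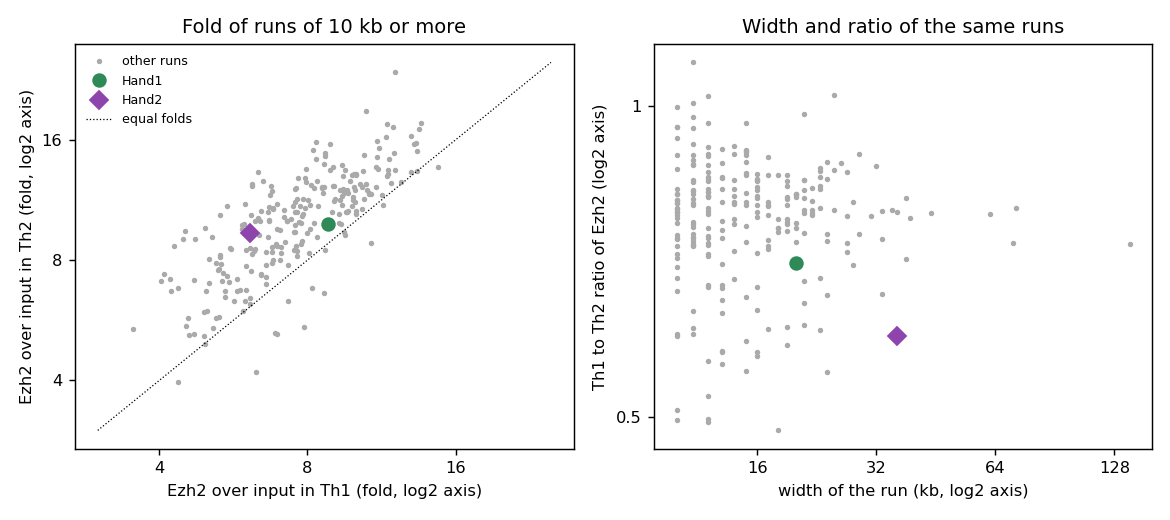
The 249 runs of 10 kb or more, each as a dot, with Hand1 as a circle and Hand2 as a diamond. The left panel plots Ezh2 over input in Th2 against that in Th1 (log2 axes, dotted line at equal folds), and the right panel the Th1 to Th2 ratio of Ezh2 in PPM (log2 axis) against the width in kb (log2 axis). Hand1 lies near the line of equal folds. Hand2 is 36 kb wide at a ratio of 0.599, and 17 of the 249 runs have a lower ratio. None of those 17 is among the 16 runs at least 30 kb wide, a cut used only here, and the ratio leaves out the inputs. With them this place does not hold. The 33 kb run chr3:128898001-128931000 stood at 7.58-fold in Th1 and 12.1-fold in Th2. Its Th1 fold was a smaller part of its Th2 fold than at Hand2 (6.14 and 9.39).

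The runs most like each gene in width and in both folds give a scale for the difference, and are given by position. The run nearest to Hand1, chr13:31704001-31722000, was 18 kb wide, at 9.27-fold in Th1 and 9.91-fold in Th2, with a ratio of 0.856. The next were chr12:120073001-120094000 with a ratio of 0.753 and chr14:104855001-104874000 with 0.835. The run nearest to Hand2, chr2:74557001-74595000, was 38 kb wide, at 7.03-fold and 9.50-fold, with a ratio of 0.711. The next were chr13:78314001-78352000 with 0.815 and chr2:38191001-38227000 with 0.788. Each gene had a lower ratio in PPM than the 3 runs nearest to it, a ratio that leaves out the inputs. The interval of Hand1 (0.648 to 0.765) includes the 0.753 of chr12:120073001-120094000. Over input that run stood at 7.92-fold in Th1 and 10.8-fold in Th2, and chr14:104855001-104874000 at 8.09-fold and 11.0-fold. Both were below Hand1 in Th1 (8.83) and above it in Th2 (9.86). The run nearest to Hand1 was above it in both. The low place of Hand1 among these runs thus holds only without the inputs.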

How the data were processed

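Ezh2 and control antibody pull-downs and inputs from mouse Th1 and Th2 cells were sequenced for 36 cycles after 18 cycles of PCR on fragments of 170 to 250 bp, per the labels' protocols. The submitters' processing notes name CASAVA and mm9. How reads were aligned and filtered is not given in the sources used here. For each library the authors deposited intervals with no strand and the count of reads sharing each, without normalization. Each interval was counted once at its midpoint, which limits the effect of PCR copies. Totals were taken over chromosomes 1 to 19 and X. Of 6 libraries, 5 were used. Windows came from a rule chosen with earlier results of these data known, as were the lists and comparisons. Folds and ratios have exact (Clopper-Pearson) intervals, and comparisons of genes are conditional odds ratios with exact intervals. No hypothesis test was made. The steps were tested on simulated data. Python 3.11.15, numpy 2.4.6, scipy 1.17.1, pandas 2.3.3 and matplotlib 3.10.9 were used. Only Hand1, Hand2 and their neighbours by order are named, and like runs were the 3 nearest in log2 width and folds. Alternatives were other bins, folds, minimums, pseudocounts, scalings, regions and backgrounds.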

Additional observations from a re-analysis of the deposited data

How the results depend on the processing

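The alternatives were run on the values of the 2 windows and on the run widths, and none of these folds or ratios changed direction. Stretches inside and beside the windows were compared only with and without the inputs. With them, the Th1 to Th2 ratio turned from 0.696 to 1.04 (0.652 to 1.66) at the Hand1 summit, from 1.14 to 0.775 in the window before the Hand1 run, and from 1.00 to 0.970 in the flank after Hand1. Of 109 values recomputed, 89 stayed within their counting interval, or within 1.5 times for counts and widths. With the control antibody as background, Th1 Ezh2 at Hand2 was 5.12-fold. With totals from the 10 kb bins of low Ezh2 over input, which raises folds by construction, folds were 8.79 in Th1 and 10.7 in Th2 at Hand1, and 6.39 and 9.93 at Hand2. With the longest run as region, they were 8.83 and 9.86 at Hand1, and 6.14 and 9.39 at Hand2. At 2-fold, 45 kb of Hand2 passed in Th1. At 8-fold, 8 kb of Hand1 and 7 kb of Hand2 passed in Th1 and 19 kb of Hand2 in Th2, and the longest runs were 7 kb at Hand1 and 17 kb at Hand2. Alternatives chosen after seeing the data moved the Th1 to Th2 ratio: with the inputs included it was 0.809 at Hand1 and 0.635 at Hand2, against the median of wide runs 0.888 and 0.755, and at the Hand2 summit 0.650. Over these alternatives the ratio lay between 0.693 and 0.888 at Hand1 and between 0.553 and 0.755 at Hand2. This range includes the inputs only for the whole windows. With the inputs, the ratio was 0.896 in the Hand1 run and 0.653 in the Hand2 run. At the Hand2 summit it was then 0.964 (0.608 to 1.54), an interval that includes equality. No paired analysis was possible because there was 1 library per group. The depth limits single bins, whose inputs held at most 16 positions in these windows.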
